A study of Mus musculus with 104 samples.

Results

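The lateral septum (LS) and the caudate putamen (CPu) are both subpallial parts of the mouse forebrain, lie on either side of the lateral ventricle and are made up largely of neurons that release GABA. The 2 arrays labelled lateral septal nucleus were set against the 2 arrays of the lateral and the 2 of the medial CPu, 6 arrays in all of a series with 2 for each of 52 regions, and each CPu region had equal weight in the reference mean. All 3 groups came from male Balb/c mice aged 7 to 8 weeks, which entered at 5 weeks of age and were kept for 2 weeks in a cycle of 12 hours of light and 12 of dark. The labels mention sampling in this cycle or in constant darkness and do not say which arrays are which. Slices of 0.5 mm were cut and the tissue was punched out with a needle of 0.5 mm, and each array held RNA pooled over 6 time points, 4 hours apart. The other 49 regions range from the cortex, hypothalamus and brainstem to the pineal gland and retina, and each region was sampled 2 times.

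The principal cells of the CPu are medium spiny neurons, which receive dopamine and turn it into changes of cyclic AMP through a set of proteins that few other neurons carry in such amounts. Neurons of the direct output pathway carry D1 receptors and substance P, and those of the indirect pathway carry D2 receptors and enkephalin. The LS takes its main input from the hippocampus, sends GABAergic axons to the hypothalamus and midbrain, and is known for its part in social behaviour, fear, feeding and the response to stress, with receptors for many peptides and for serotonin.

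Values were deposited as log2 expression levels, so a difference of 1 is 2-fold. Across the 18193 genes, r between the 2 arrays of a region was 0.995 in LS, 0.994 in lateral CPu and 0.992 in medial CPu, against 0.958 to 0.968 between LS and CPu arrays. The median SD between the arrays of a region was 0.08 in LS, 0.08 in lateral CPu and 0.11 in medial CPu. Array medians ran from 7.36 to 7.41, and spiked hybridisation controls averaged 11.003 and 10.962 in LS and 10.88 to 11.04 in CPu. Nothing in the labels states that the 2 arrays of a region came from different animals. A p or SE here speaks only of how far the 2 arrays of a region vary. That spread was estimated for each gene over all 52 regions, not from the LS and CPu arrays alone. In tissue punches, fewer cells of a type and less RNA per cell cannot be told apart.

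A gene was called when its adjusted p in limma, with Benjamini-Hochberg adjustment over all genes, was below 0.05 and its difference reached 2-fold. By this rule 456 genes, 2.51% of those tested, were higher in LS than in CPu and 376 genes, 2.07%, were lower. At least 8-fold separated the regions for 26 genes upward and for 28 downward. Both LS arrays lay above all 4 CPu arrays for 453 of the 456, and below all of them for 376 of the 376 called lower, against 17.1% and 19.0% of all genes. Without the fold threshold, 2742 genes (15.1%) were higher and 2252 (12.4%) lower, so many smaller differences also passed. The median difference over all genes was -0.03 and the median SE was 0.10. With lateral CPu alone as the reference, 548 genes were higher (3.01%) and 370 lower (2.03%), and with medial CPu alone 409 were higher (2.25%) and 424 lower (2.33%). Of all genes, 349 were called higher and 294 lower against both CPu regions, 0 in opposite directions; both counts share the LS arrays.

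The LS label was set beside markers of the septum. The list was chosen with earlier results of these data known, so it is a description and not an independent check of the label. Prdm16, a zinc finger transcription factor best known from brown fat and neural stem cells, stood at 11.60 and 11.04 in the LS arrays, against 7.53 and 7.36 in lateral CPu and 7.58 and 7.18 in medial CPu. The difference was 3.91 ± 0.17 (SE, adjusted p = 2.33e-28), or 15-fold, and the LS arrays lay above every other array of the series, with 8.77 in the median eminence as the next highest region. Grk5, a kinase that phosphorylates activated G protein-coupled receptors, stood at 9.83 and 10.04 in the LS arrays, against 7.74 and 8.05 in lateral CPu and 8.45 and 8.42 in medial CPu. Its difference was 1.77 ± 0.11 (SE, adjusted p = 6.45e-21), and LS ranked first of the 52 regions. Among all genes 2.51% were called higher and 2.07% lower, and the counts of this and the later lists stand beside those shares. Of 11 measured septal genes, 7 were called higher, 0 lower, with a median difference of 1.98 against -0.03 for all genes. Besides Prdm16 and Grk5 they were Zic1, Zic2 and Zic4, the cation channel gene Trpc4 (3.08), and Homer2, a scaffold of glutamate synapses (1.98). Sox5, a transcription factor, Crhr2, the receptor for urocortins, Avpr1a, the vasopressin receptor, and Ndst4, an enzyme of heparan sulphate synthesis, had differences of 0.94, 0.73, 0.52 and 0.37, below 2-fold but all with an adjusted p below 0.05. The other probe sets of Prdm16 gave differences down to 0.76.

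The ZIC proteins are zinc finger transcription factors of neural tube, septal and cerebellar development. Zic1 stood at 13.67 and 13.60 in the LS arrays, against 10.22 and 9.25 in lateral CPu and 9.49 and 8.51 in medial CPu, a difference of 4.27 ± 0.38 (SE, adjusted p = 9.39e-15). LS was the highest of all regions at 13.63, with the cerebellar lobe (13.48) and the habenula (13.47) close behind. The 2 arrays of each CPu region differed from each other by more than those of LS. Zic2 stood at 9.43 and 8.57 in the LS arrays, against 5.97 and 6.04 in lateral CPu and 6.14 and 6.10 in medial CPu, a difference of 2.94 ± 0.19 (SE, adjusted p = 1.80e-20), again with LS above every other array. Zic4 (2.38) and Zic5 (3.41) were higher as well, so that all 4 of the measured ZIC genes were called. In the RefSeq annotation Zic1 and Zic4 are direct neighbours on chromosome 9 and Zic2 and Zic5 on chromosome 14. The start regions of Zic1 and Zic4, genes of opposite strands that were higher together, and of Prdm16 are shown from 250 bases before to 50 after the start. They are from RefSeq on GRCm38.p6, at chr9:91365719-91366018 (minus strand) for Zic1, chr9:91368722-91369021 (plus strand) for Zic4 and chr4:154636824-154637123 (minus strand) for Prdm16. Capitals mark GGGCGG on either strand, the GC box read by Sp-family factors.
Zic1: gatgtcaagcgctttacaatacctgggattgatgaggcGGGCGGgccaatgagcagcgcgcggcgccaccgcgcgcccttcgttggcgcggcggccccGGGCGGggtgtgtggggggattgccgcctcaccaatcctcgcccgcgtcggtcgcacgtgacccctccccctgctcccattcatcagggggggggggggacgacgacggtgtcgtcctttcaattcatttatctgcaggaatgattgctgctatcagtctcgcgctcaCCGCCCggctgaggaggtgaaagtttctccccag
Zic4: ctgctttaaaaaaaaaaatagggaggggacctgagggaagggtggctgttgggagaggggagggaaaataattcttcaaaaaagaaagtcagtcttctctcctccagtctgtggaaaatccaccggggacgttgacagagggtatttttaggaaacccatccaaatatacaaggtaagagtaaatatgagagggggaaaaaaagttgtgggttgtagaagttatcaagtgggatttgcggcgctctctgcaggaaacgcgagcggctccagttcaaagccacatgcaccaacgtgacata
Prdm16: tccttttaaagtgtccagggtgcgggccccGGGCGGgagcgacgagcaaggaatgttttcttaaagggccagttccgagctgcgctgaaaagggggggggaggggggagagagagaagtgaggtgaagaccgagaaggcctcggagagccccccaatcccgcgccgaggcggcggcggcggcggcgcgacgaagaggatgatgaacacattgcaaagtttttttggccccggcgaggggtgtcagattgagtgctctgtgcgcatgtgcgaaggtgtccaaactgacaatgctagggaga
Zic1 held 3 such matches, Prdm16 1 and Zic4 0. Among all 32851 start regions in the reference 35.7% held the motif, against 54.6% of the 507 that belong to genes called higher and 53.9% of the 414 that belong to genes called lower. The share was thus alike in both directions. The reference was not limited to the genes tested, and a gene could have several start regions. The 35.7% is therefore not a matched background for the called genes. Of the genes called higher 352 had a start region in the reference, and of those called lower 276 had one.

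Transcription factors of the subpallium split between the 2 regions. Of 42 measured, 11 were called higher in LS and 7 lower, with a median of 0.10. Sp8, a zinc finger factor of developing interneurons, stood at 9.63 and 9.04 in the LS arrays, against 5.59 and 5.20 in lateral CPu and 5.24 and 5.35 in medial CPu, a difference of 3.99 ± 0.12 (SE, adjusted p = 6.70e-37). Dlx1, a homeodomain factor of GABAergic neurons, stood at 10.37 and 10.23 in the LS arrays, against 6.98 and 6.77 in lateral CPu and 6.77 and 6.83 in medial CPu, a difference of 3.46 ± 0.16 (SE, adjusted p = 3.61e-27). Its neighbour on chromosome 2, Dlx2, was also higher (2.499), whereas the related pair on chromosome 6, Dlx5 and Dlx6, had differences of 0.48 and 0.53, below 2-fold. The remaining genes called higher were Lhx2 (1.505), Pax6 (1.15) and Otx2 (1.58); with the mean of its probe sets Pax6 was at 0.36 and no longer called. Lower in LS were Rarb, the retinoic acid receptor beta, and its partner Rxrg, with Ebf1 (-2.68), Foxp1 (-2.31), Bcl11b (-2.28), Foxp2 (-1.56) and Zfp503 (-1.19; -0.93 with the mean of its probe sets), all factors of striatal development. Rarb stood at 7.81 and 8.12 in the LS arrays, against 11.66 and 11.57 in lateral CPu and 11.92 and 11.69 in medial CPu, a difference of -3.74 ± 0.12 (SE, adjusted p = 1.25e-34), and the 4 CPu arrays lay above every other array. Rxrg had a difference of -2.90 ± 0.11 (SE, adjusted p = 8.27e-32). Factors of the medial ganglionic eminence and the globus pallidus, Nkx2-1 (0.04), Lhx6 (-0.65) and Lhx8 (0.09), were not called.

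Of 18 measured genes that mark medium spiny neurons, 17 were lower in LS and 0 higher, with a median difference of -3.05. Gpr6, an orphan receptor of D2 neurons that raises cyclic AMP, stood at 6.87 and 7.37 in the LS arrays, against 11.63 and 11.88 in lateral CPu and 11.66 and 11.88 in medial CPu. The difference of -4.64 ± 0.23 (SE, adjusted p = 1.98e-26), 25-fold lower in LS, was the largest of all genes named, and the groups were far apart. Drd1, the D1 dopamine receptor, stood at 6.93 and 7.61 in the LS arrays, against 11.66 and 11.71 in lateral CPu and 11.53 and 11.67 in medial CPu, a difference of -4.37 ± 0.20 (SE, adjusted p = 5.63e-28). Ppp1r1b encodes DARPP-32, the phosphatase inhibitor that cyclic AMP switches on in these neurons. It stood at 9.01 and 9.25 in the LS arrays, against 13.27 and 13.32 in lateral CPu and 12.96 and 13.16 in medial CPu, a difference of -4.05 ± 0.15 (SE, adjusted p = 4.07e-32). The CPu arrays were again above every array of the other 50 regions, with Tu, the olfactory tubercle, the nearest at 12.86. Genes of both output pathways were lower: Tac1, the substance P precursor (-3.60), beside Drd1, and Drd2 (-2.20) and Penk, the enkephalin precursor (-3.19), beside Gpr6. Pdyn, the dynorphin precursor, was the only marker not called, at 6.31 ± 0.13 in LS, against 7.00 ± 0.49 in lateral CPu and 7.46 ± 0.08 in medial CPu (SD, n = 2 each), a difference of -0.92 ± 0.13 (SE, adjusted p = 6.20e-08). Ptpn5, the striatum-enriched phosphatase STEP, was near the threshold (-1.05) and fell below 2-fold, at -0.81, without LS replicate 2.

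The start region of Gpr6 is shown because it had the largest difference, in the same window, at chr10:41072241-41072540 (minus strand) on GRCm38.p6. Capitals mark TGACG on either strand, the half-site of the cyclic AMP response element.
Gpr6: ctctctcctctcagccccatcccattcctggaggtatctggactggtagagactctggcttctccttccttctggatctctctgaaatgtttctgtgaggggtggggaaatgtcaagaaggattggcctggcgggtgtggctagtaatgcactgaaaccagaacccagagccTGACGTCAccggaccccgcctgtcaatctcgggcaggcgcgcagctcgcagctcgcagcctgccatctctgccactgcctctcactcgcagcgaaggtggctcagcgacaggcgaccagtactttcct
The 2 matches overlap and make up the palindromic full element. Start regions with at least 1 TGACG made up 20.8% of all, 25.6% of those of genes called higher and 21.7% of those of genes called lower. Here too the share of all was not limited to the genes tested.

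Of 30 measured genes listed for dopamine and cyclic AMP signalling, muscarinic receptors included, 14 were called lower in LS and 2 higher, with a median of -0.94. Several of them are also among the markers above. At the receptors, Chrm1, the muscarinic M1 receptor, was lower (-1.57) beside Drd1 and Drd2, while Drd3 (0.03), Drd4 (-0.18) and Chrm4 (-0.11) were not called. At the G protein, Gng7, the gamma subunit that couples striatal receptors to adenylyl cyclase, stood at 10.02 and 10.04 in the LS arrays, against 12.96 and 13.16 in lateral CPu and 12.97 and 13.16 in medial CPu, a difference of -3.03 ± 0.13 (SE, adjusted p = 2.87e-28). The alpha subunit Gnal, which takes the place of Gs in the striatum, had a difference of -0.90 ± 0.17 (SE, adjusted p = 2.67e-05) and was not called for its size. Gnas, which encodes the usual Gs alpha subunit, was called higher at 1.82, but was at 0.73 with the mean of its probe sets. Without probe sets named _x_at or _s_at it was at 0.46, so this call depends on the probe set. The probe set then used was dimmer, with an LS mean of 8.00 against 13.27 for the brightest one. Adcy5, the adenylyl cyclase of striatal neurons, was lower (-1.499; -0.60 with the mean of its probe sets and then not called), whereas Adcy2 (0.87) and Adcy8 (0.91) were positive and below 2-fold. Among phosphodiesterases, which break cyclic nucleotides down, Pde7b (-3.46), Pde1b (-2.95) and Pde10a (-2.72) were lower and Pde1a (1.65; 0.79 with the mean of its probe sets) was higher. The phosphoproteins Arpp21 (-2.65) and Arpp19 (-2.95), substrates of protein kinase A, were lower. Other probe sets of Arpp21 gave -3.30, -0.23, -0.06 and 0.15, so its difference depends on the probe set.

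The 20 largest differences upward all exceeded 3.15 and had adjusted p of at most 9.39e-15. Slc8a1, the sodium-calcium exchanger of the plasma membrane, stood at 12.37 and 12.54 in the LS arrays, against 8.77 and 8.04 in lateral CPu and 7.93 and 7.92 in medial CPu, a difference of 4.29 ± 0.22 (SE, adjusted p = 8.22e-25). LS was above every other array. Camk2d, the delta chain of calcium/calmodulin-dependent kinase, stood at 10.59 and 10.58 in the LS arrays, against 6.36 and 7.09 in lateral CPu and 6.98 and 6.77 in medial CPu, a difference of 3.78 ± 0.17 (SE, adjusted p = 4.01e-28), and CPu was the lowest of all regions. Prkcd, the delta isoform of protein kinase C, stood at 12.22 and 12.01 in the LS arrays, against 8.26 and 8.00 in lateral CPu and 8.32 and 8.33 in medial CPu, a difference of 3.89 ± 0.15 (SE, adjusted p = 9.99e-32). Tmem255a, a membrane protein, had the largest upward difference, 4.42 ± 0.20 (SE, adjusted p = 1.02e-27), and stood at 11.18 and 11.28 in the LS arrays, against 5.95 and 6.63 in lateral CPu and 7.28 and 7.39 in medial CPu. LS and CPu arrays did not overlap for any of these 4 genes, which the rule for picking the 20 genes required. The others included Ppm1e, a phosphatase of calcium/calmodulin-dependent kinases (3.902), the transcription factor Zfp423 (3.54), Resp18, a protein of secretory granules (3.42), Car10, a carbonic anhydrase relative without enzyme activity (3.41), Sez6l (3.22), Plcxd3 (3.32), and Synm, the intermediate filament synemin (3.16). Gng4, a G protein gamma subunit, had a difference of 3.52. Without probe sets named _x_at or _s_at the brightest one left gave 0.59 and was not called, while another one left gave 2.91. Other probe sets ran down to 0.71 for Slc8a1, 0.06 for Camk2d, 1.33 for Prkcd, -0.21 for Sema5a and -0.08 for Car10, so the size of these differences depends on the probe set.

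**Figure D1:**
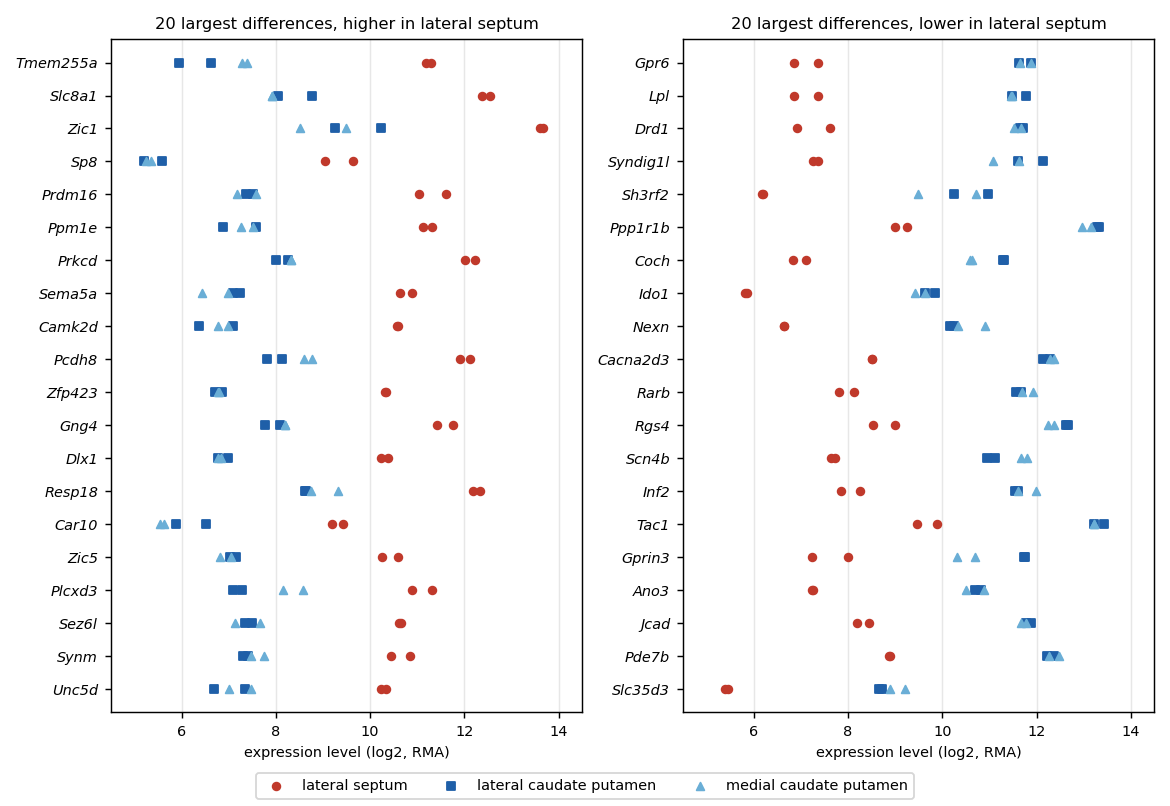
Levels (log2, RMA) of the 20 genes that differed most upward and the 20 that differed most downward, 1 point per array: 2 LS arrays (circles), 2 lateral CPu (squares) and 2 medial CPu arrays (triangles). On the left, Slc8a1 at 12.37 and 12.54 in LS lies clear of all CPu arrays. On the right, Gpr6 lies at 6.87 and 7.37 in LS and above 11.5 in CPu. Genes were drawn only if both LS arrays lay on 1 side of all CPu arrays.

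Genes with both LS arrays above all other arrays of the series numbered 21 among those called higher and 35 among all genes tested. Pnoc, the nociceptin precursor, stood at 10.21 and 9.71 in the LS arrays, against 6.85 and 6.85 in lateral CPu and 6.77 and 6.82 in medial CPu, a difference of 3.14 ± 0.13 (SE, adjusted p = 5.55e-29). Trpc4 stood at 10.55 and 10.34 in the LS arrays, against 7.61 and 7.27 in lateral CPu and 7.48 and 7.08 in medial CPu, a difference of 3.08 ± 0.14 (SE, adjusted p = 2.87e-27). Neither gene's LS values were reached by any other region, the nearest being the medial preoptic area for Pnoc (9.29) and the ventral subiculum for Trpc4 (10.001). St8sia6, a sialyltransferase (2.99), Slitrk1, a synaptic adhesion protein (2.79), Arhgap6 (2.72), Lbhd2 (2.92) and Tcerg1l (2.17) shared the pattern with Slc8a1, Zic1, Zic2, Prdm16 and Synm. The lowest probe sets of St8sia6 and Tcerg1l were at 0.97 and 0.52.

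The 20 largest differences downward were all at or below -3.44 and had adjusted p of at most 2.42e-17. Besides the markers above, Lpl, lipoprotein lipase, stood at 6.86 and 7.37 in the LS arrays, against 11.47 and 11.78 in lateral CPu and 11.48 and 11.46 in medial CPu, a difference of -4.43 ± 0.19 (SE, adjusted p = 3.49e-29). Syndig1l, which is named capucin for its enrichment in the caudate and putamen, stood at 7.26 and 7.36 in the LS arrays, against 12.15 and 11.61 in lateral CPu and 11.64 and 11.07 in medial CPu, a difference of -4.31 ± 0.12 (SE, adjusted p = 1.12e-38). Ido1, which degrades tryptophan, stood at 5.82 and 5.87 in the LS arrays, against 9.85 and 9.63 in lateral CPu and 9.64 and 9.41 in medial CPu, a difference of -3.79 ± 0.11 (SE, adjusted p = 1.80e-38). In LS this gene lay below the median of all values, 7.39, as did the lower mean of 10 of these 20 genes and of 10 of the 20 upward; such values are near background and the size of the fold is then uncertain. Others were Sh3rf2 (-4.17), Coch, the extracellular protein cochlin (-3.99), Nexn, the actin-binding protein nexilin (-3.78), Cacna2d3, an auxiliary subunit of calcium channels (-3.76), Scn4b, an auxiliary subunit of sodium channels (-3.70), Inf2, a formin (-3.63), Gprin3 (-3.50), Ano3, an anoctamin (-3.47), Jcad (-3.46) and Slc35d3 (-3.44). Serpina9, a serine protease inhibitor (-3.27), was highest in CPu of all arrays. The other probe sets of Tac1 gave differences as small as -0.16.

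The place of both regions among all 52 differed by direction. Of the 456 genes called higher, LS was among the top 5 regions for 122 (26.8%, against 4.96% of all genes), and both CPu regions were among the lowest 10 for 266 (58.3%, against 12.5% of all genes). Both features held for 28, and the share of all genes with both was not computed. Of the 376 called lower, both CPu regions were among the top 5 for 234 (62.2%, against 4.84% of all genes), while LS was among the lowest 10 for 77 (20.5%, against 21.5% of all genes). These shares describe the called genes, whose call uses the same arrays, and carry no test. For 108 of the genes called lower (28.7%) the olfactory tubercle, the ventral extension of the striatum, was the highest of the other 49 regions, against 2.01% of all genes. The same held for 15 of the 20 largest, such as Drd1, for which the tubercle stood at 11.72. In 76 genes called lower, and in 115 of all genes, the 4 CPu arrays were above all other arrays. Both LS arrays lay below all others in 0 genes called lower and in 13 of all genes.

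**Figure D2:**
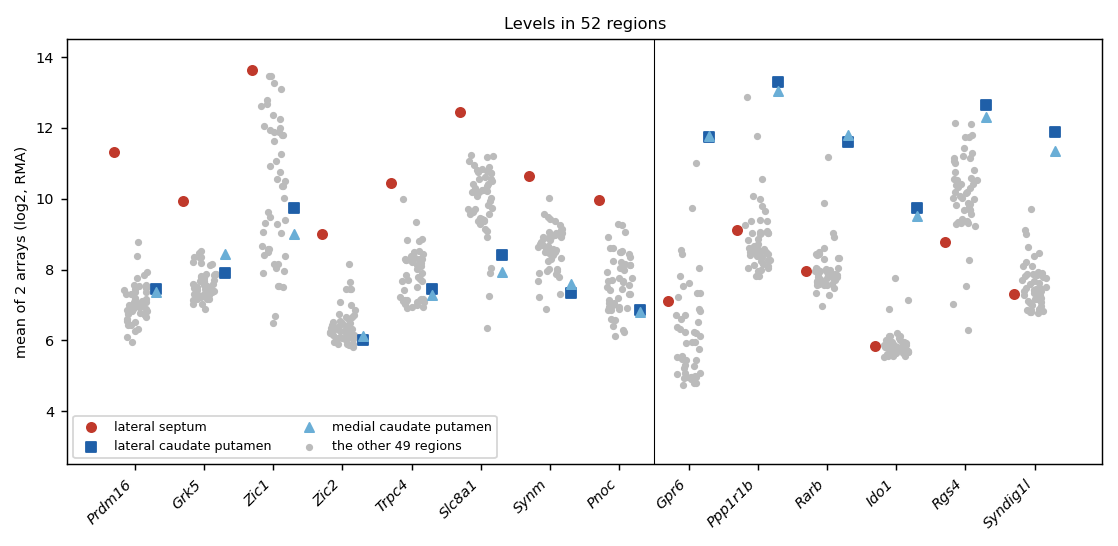
Mean level (log2, RMA, 2 arrays per region) of 14 genes in LS (circles), lateral CPu (squares), medial CPu (triangles) and the other 49 regions (grey points). LS is above all other regions for the 8 genes left of the line, and lies among the grey points for the 6 genes on the right, for which CPu is highest.

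Peptide precursors differed in both directions. Of 22 measured, 3 were called higher and 3 lower. Nts, the neurotensin precursor, stood at 10.26 and 9.91 in the LS arrays, against 7.20 and 7.52 in lateral CPu and 7.07 and 7.16 in medial CPu, a difference of 2.85 ± 0.22 (SE, adjusted p = 5.34e-17). Cartpt, the CART peptide precursor, stood at 9.42 and 9.38 in the LS arrays, against 7.05 and 7.36 in lateral CPu and 7.23 and 7.87 in medial CPu, a difference of 2.02 ± 0.18 (SE, adjusted p = 1.49e-14). Both genes and Pnoc were well apart from CPu. Besides Penk and Tac1, Npy was lower, at 8.72 and 9.48 in the LS arrays, against 10.47 and 10.59 in lateral CPu and 11.34 and 10.82 in medial CPu, a difference of -1.71 ± 0.18 (SE, adjusted p = 6.43e-12). Sst (0.09), Cck (0.32) and Vip (0.28) were not called. Among 39 peptide receptors, 2 were called higher and 0 lower, against 2.51% and 2.07% of all genes, so the count says little about the family. Oprl1, the receptor for nociceptin, stood at 10.17 and 10.02 in the LS arrays, against 7.93 and 8.17 in lateral CPu and 8.49 and 8.46 in medial CPu, a difference of 1.83 ± 0.11 (SE, adjusted p = 1.69e-22), so that ligand and receptor were both higher in LS. Adcyap1r1, the PACAP receptor, stood at 11.08 and 11.01 in the LS arrays, against 8.95 and 9.10 in lateral CPu and 9.89 and 9.85 in medial CPu, a difference of 1.599 ± 0.08 (SE, adjusted p = 5.90e-25). The receptors for vasopressin and urocortin were given with the septal genes, and Oxtr, the oxytocin receptor, had a difference of 0.05 ± 0.08 (SE, adjusted p = 0.709). Opioid receptors other than Oprl1 had differences of 0.06 (Oprm1), -0.55 (Oprk1) and -0.40 (Oprd1) and were not called. None of 11 steroid and nuclear hormone receptors was called, the widest being Esr1, an oestrogen receptor, at 0.76 ± 0.19 (SE, adjusted p = 0.00146).

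For the serotonin, adrenergic and histamine receptors, 3 of 17 measured were called higher and 1 lower. Htr1a, the inhibitory 5-HT1A receptor, stood at 9.17 and 9.34 in the LS arrays, against 7.36 and 6.94 in lateral CPu and 7.02 and 7.36 in medial CPu, a difference of 2.09 ± 0.16 (SE, adjusted p = 3.06e-17). The LS arrays were clearly above those of CPu, and only CA1 of the hippocampus had a higher mean. Htr7 (1.10) and Htr2c (1.10) were near the threshold and were at 0.98 without LS replicate 1 and at 0.88 without lateral CPu replicate 1, so neither call held throughout. Adra2c, an alpha-2 adrenergic receptor known from the striatum, stood at 7.88 and 7.96 in the LS arrays, against 9.90 and 9.79 in lateral CPu and 10.10 and 9.77 in medial CPu, a difference of -1.97 ± 0.11 (SE, adjusted p = 8.48e-23). Regulators of G protein-coupled receptors also divided: of 21, 2 kinases were called higher, Grk5 and Grk3 (1.54), and 5 RGS proteins, which speed up the shut-off of G proteins, were lower. These were Rgs4, Rgs9 (-3.29), Rgs8 (-2.67), Rgs14 (-1.16) and Rgs20 (-1.04; between -0.98 and -0.99 without LS replicate 1 or lateral CPu replicate 2). Rgs4 stood at 8.54 and 9.001 in the LS arrays, against 12.66 and 12.63 in lateral CPu and 12.25 and 12.38 in medial CPu. Its difference was -3.71 ± 0.14 (SE, adjusted p = 2.82e-32). Rgs9, whose brain form acts on D2 receptor signalling, stood at 9.58 and 9.57 in the LS arrays, against 12.79 and 12.80 in lateral CPu and 13.09 and 12.77 in medial CPu. The arrestins Arrb1 (-0.03) and Arrb2 (0.08) were not called.

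Genes of GABA synthesis lay within 2-fold of CPu, whereas subunits of the GABA-A receptor were called in both directions. Gad1, a GABA-producing enzyme, stood at 13.13 and 13.01 in the LS arrays, against 12.75 and 12.85 in lateral CPu and 12.72 and 12.72 in medial CPu, a difference of 0.31 ± 0.25 (SE, adjusted p = 0.403), and the vesicular transporter Slc32a1 had a difference of 0.34 ± 0.24 (SE, adjusted p = 0.312). Gad2 had a difference of 0.91 ± 0.20 (SE, adjusted p = 1.47e-04), below 2-fold, and LS was first of 52 regions. Of 18 measured members, 4 were called higher and 2 lower. Gabrg1, the gamma-1 subunit, stood at 10.75 and 10.90 in the LS arrays, against 7.83 and 8.01 in lateral CPu and 8.32 and 8.58 in medial CPu, a difference of 2.64 ± 0.15 (SE, adjusted p = 6.85e-23). Gabra3, the alpha-3 subunit, had a difference of 2.34 ± 0.15 (SE, adjusted p = 6.81e-21), and Gabra5, the alpha-5 subunit of extrasynaptic receptors, of 1.32 ± 0.19 (SE, adjusted p = 2.91e-08). Gabrd, the delta subunit that makes receptors for tonic inhibition, stood at 7.17 and 7.62 in the LS arrays, against 10.02 and 10.10 in lateral CPu and 10.70 and 10.40 in medial CPu, a difference of -2.91 ± 0.19 (SE, adjusted p = 2.68e-20). Gabra4, the alpha-4 subunit and frequent partner of delta, stood at 9.97 and 9.91 in the LS arrays, against 11.33 and 11.51 in lateral CPu and 11.50 and 11.48 in medial CPu, a difference of -1.51 ± 0.17 (SE, adjusted p = 5.67e-11). The groups did not overlap for any of these subunits. Gabra4 and Gabrb1 are direct neighbours on chromosome 5, as are Gabrg1 and Gabra2. Their differences were -1.51, 0.95, 2.64 and 0.67, so that Gabra4 and Gabrb1 differed in sign while Gabrg1 and Gabra2 were both positive; Gabrb1 and Gabra2 were below 2-fold. Slc6a11, the GABA transporter GAT-3 of astrocytes, was called at 1.86 and was at 0.93 with the mean of its probe sets.

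**Figure D3:**
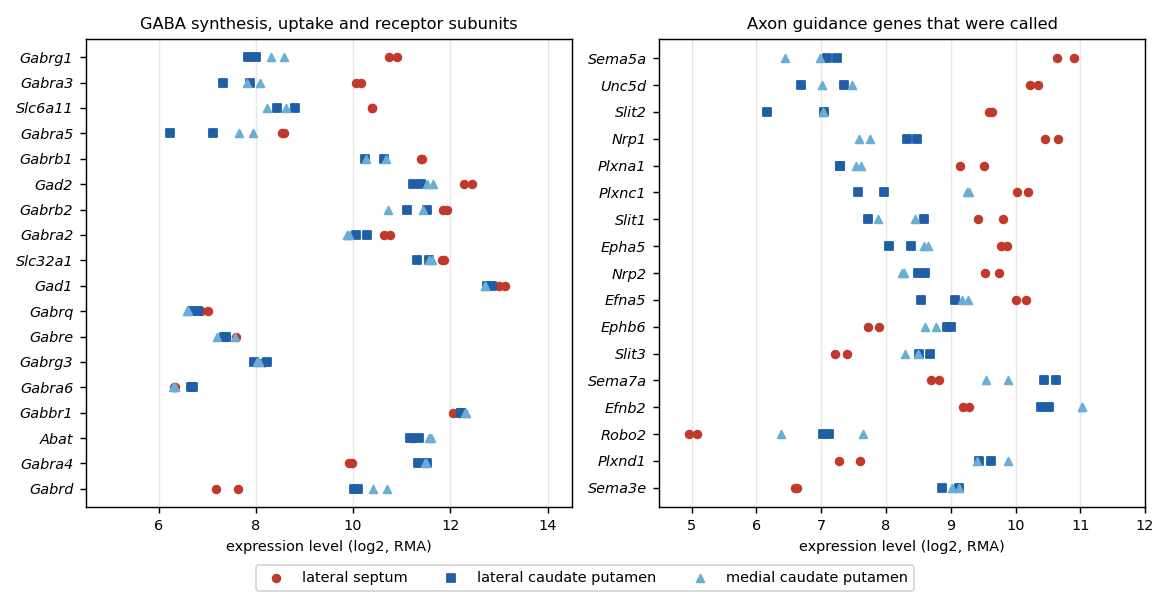
Levels (log2, RMA) per array of the 18 measured GABA genes (left) and the 17 called axon guidance genes (right), sorted by the difference of LS minus CPu, with LS as circles, lateral CPu as squares and medial CPu as triangles. Gabrg1 and Gabra3 at the top and Gabra4 and Gabrd at the bottom stand apart in opposite directions, while Gad1 and Gabbr1 lie close together.

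For glutamate, 4 of 25 receptor and cerebellin genes were called higher and 1 lower. Grik1, the GluK1 kainate receptor subunit, stood at 7.72 and 7.13 in the LS arrays, against 5.29 and 5.13 in lateral CPu and 5.06 and 5.06 in medial CPu, a difference of 2.29 ± 0.15 (SE, adjusted p = 8.83e-21), whereas Grik2, the GluK2 subunit, was lower (-1.28 ± 0.10 (SE, adjusted p = 2.42e-17)). These 2 kainate subunits thus moved in opposite directions. Cbln4, a cerebellin that organises synapses (1.596), Grm8, a presynaptic metabotropic receptor (1.27), and Grin3a, an NMDA receptor subunit (1.22; 0.99 without LS replicate 2), were higher. The main AMPA and NMDA subunits measured lay within 2-fold, among them Gria1 (0.89), Gria2 (0.32), Grin2a (-0.85) and Grin2b (-0.23).

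Of 41 ion channel genes, 5 were called higher in LS and 10 lower, with a median of -0.33. Higher were Trpc4, Kcnip1, a partner of A-type potassium channels (2.47), the fast delayed rectifier Kcnc2 (1.83), Kcnd3, an A-type channel (1.72; 0.87 with the mean of its probe sets), and Cacna1g, a T-type calcium channel (1.68). Kcnc2 stood at 7.90 and 8.24 in the LS arrays, against 5.94 and 6.62 in lateral CPu and 6.28 and 6.14 in medial CPu. Lower were Kcnj4, an inward rectifier of striatal neurons, at 6.22 and 6.58 in the LS arrays, against 8.58 and 8.70 in lateral CPu and 8.62 and 8.78 in medial CPu, a difference of -2.27 ± 0.12 (SE, adjusted p = 3.27e-24), and Kcna4 (-2.16). A second A-type channel gene, Kcnd2, stood at 10.15 and 10.15 in the LS arrays, against 12.02 and 12.15 in lateral CPu and 12.07 and 11.99 in medial CPu, a difference of -1.91 ± 0.14 (SE, adjusted p = 1.65e-17). Kcnd2 and Kcnd3 therefore differed in direction. The M-current subunits Kcnq3 (-1.55) and Kcnq5 (-1.58), Kcnk2 (-1.74), Kcnab1 (-1.67), Kcnh3 (-1.23), Cacna1c (-1.28) and Cacna1h (-1.37) were lower as well; Kcnh3 and Cacna1h were at -0.74 and -0.83 with the mean of their probe sets. Cacna1g and Cacna1h, both T-type channels, were thus called in opposite directions. Of 16 calcium-binding proteins, Vsnl1, visinin-like protein (3.08), Ncald, neurocalcin (2.66), and Calb2, calretinin (1.53), were higher, and Calb1, calbindin (-2.00), Hpca, hippocalcin (-1.94), and Cabp1 (-1.71) were lower. Calb1 stood at 10.63 and 10.34 in the LS arrays, against 12.04 and 12.37 in lateral CPu and 12.82 and 12.70 in medial CPu, without overlap.

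Guidance molecules for axons were called in both directions, 10 of 43 higher and 7 lower, with a median of 0.06. Among ligands, Sema5a, a transmembrane semaphorin, stood at 10.63 and 10.90 in the LS arrays, against 7.09 and 7.25 in lateral CPu and 6.98 and 6.44 in medial CPu, a difference of 3.82 ± 0.23 (SE, adjusted p = 1.09e-21). Slit2, a secreted repellent, stood at 9.60 and 9.63 in the LS arrays, against 7.04 and 6.17 in lateral CPu and 7.03 and 7.03 in medial CPu, a difference of 2.80 ± 0.17 (SE, adjusted p = 2.09e-21), and Slit1 (1.45) was higher too. Slit3 (-1.19) and their receptor Robo2 (-2.02 ± 0.15 (SE, adjusted p = 5.44e-18)) were lower, so the 3 Slit genes did not share a direction. The receptors Unc5d, for netrin (3.15), Nrp1 (2.52) and Nrp2 (1.23), for semaphorins of class 3, and Plxna1 (1.90) and Plxnc1 (1.59) were higher. In CPu, the pair of Sema3e and its receptor Plxnd1 was higher than in LS. Sema3e stood at 6.60 and 6.63 in the LS arrays, against 8.87 and 9.13 in lateral CPu and 9.13 and 9.01 in medial CPu, a difference of -2.42 ± 0.21 (SE, adjusted p = 2.09e-15). Plxnd1 stood at 7.27 and 7.59 in the LS arrays, against 9.62 and 9.43 in lateral CPu and 9.88 and 9.40 in medial CPu, a difference of -2.15 ± 0.10 (SE, adjusted p = 3.12e-27). Neither gene's groups overlapped. Of the ephrin system, Epha5 (1.41) and Efna5 (1.07) were higher and Efnb2 (-1.51) and Ephb6 (-1.02) lower; Efna5 and Ephb6 fell below 2-fold when 1 array of LS or of CPu was left out, and Efna5 was at 0.63 with the mean of its probe sets. Sema7a was lower (-1.36). Of 24 cadherins, Pcdh8 (3.68), Pcdh19 (3.08), Cdh2, N-cadherin (1.45), and Pcdh20 (1.41) were higher and Cdh9 (-2.71) was lower.

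Of 14 immediate early genes, which neurons switch on when active, 6 were called lower in LS and 1 higher, with a median of -0.49. Nr4a1 stood at 9.63 and 9.67 in the LS arrays, against 11.72 and 11.43 in lateral CPu and 11.31 and 11.08 in medial CPu, a difference of -1.73 ± 0.17 (SE, adjusted p = 2.12e-13). Egr2 (-1.54), Junb (-1.21), Egr1 (-1.15), Dusp1 (-1.15) and Npas4 (-1.07) were lower, while Fos (-0.05) and Arc (-0.15) were not called. Jun was called higher (1.05), and this call, like that of Npas4 at -0.81, was lost without single arrays (0.93 to 0.996 for Jun).

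Markers of other cells that the punches could hold were set beside these results, with 2.51% of all genes called higher and 2.07% lower. For the LS side, 3 of 11 genes of subventricular neuroblasts and dividing cells were called higher, Dlx1, Dlx2 and Dcx, a microtubule protein of migrating neurons (1.55; 0.89 with the mean of its probe sets), while the genes of dividing cells Mki67 (-0.05), Top2a (0.05) and Cdk1 (-0.14) were not. The mean level of this list was 8.46 and 8.41 in LS, against 7.47 to 7.56 in CPu. That mean includes Dlx1, Dlx2 and Dcx themselves, and the median difference of the list was 0.48. The part of such cells in the higher Dlx1, Dlx2 and Sp8 was not tested. Of 12 astrocyte genes, Gjb6, a connexin (1.55), and Aqp4, the water channel (1.12; 0.97 without medial CPu replicate 2 and 0.65 with the mean of its probe sets), were called higher, and the mean level was 10.59 and 10.61 in LS, against 10.12 to 10.25 in CPu; its part in the higher Slc6a11 was not tested. Of 9 choroid plexus genes, Otx2 and Sostdc1 (1.13; 0.81 without LS replicate 1, adjusted p = 0.0797) were called, but Ttr, the defining transport protein, had a difference of 0.29 ± 0.60 (SE, adjusted p = 0.777). The mean level of this list was 7.18 and 7.16 in LS, against 6.74 to 6.84 in CPu, below the median of all values in both. That mean includes Otx2 and Sostdc1 themselves, and the median difference of the list was 0.10. The part of choroid plexus in the higher Otx2 was not tested. None of the 9 ependymal, 10 meningeal or 7 oligodendrocyte precursor genes was called. Without the fold threshold, 3 ependymal, 0 meningeal and 4 precursor genes were higher in LS, and 0 of each were lower. By adjusted p alone, 7 neuroblast, 6 astrocyte and 3 choroid plexus genes were higher, and 0, 1 and 0 were lower. The shares of all genes were 15.1% higher and 12.4% lower.

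For the CPu side, 0 of 11 myelin, 0 of 11 microglial and 0 of 12 endothelial genes were called, with medians of -0.35, -0.39 and -0.38. Without the fold threshold, 4 myelin, 7 microglial and 7 endothelial genes were lower in LS. Mean levels of the myelin list were 9.67 and 10.20 in LS, against 10.07 to 10.51 in CPu, and overlapped. Those of the microglial list were 7.97 and 8.09 in LS, against 8.40 to 8.51 in CPu, and those of the endothelial list 8.38 and 8.40 in LS, against 8.68 to 8.74 in CPu. Of 12 interneuron genes, Calb2 was higher and Npy lower. The cholinergic genes Chat (-0.36), Slc18a3 (-0.76) and Slc5a7 (-0.88) were not called, nor was any of the 9 genes of basal forebrain cholinergic neurons. Of 13 genes of cortical and hippocampal projection neurons, Emx2, a factor of the dorsal forebrain (1.35), was higher and Lmo3 (-1.76) lower, and Slc17a7, the glutamate transporter of cortical neurons, had a difference of 0.33 ± 0.23 (SE, adjusted p = 0.327). The pallidal list of 7 held 1 call, Penk.

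**Figure D4:**
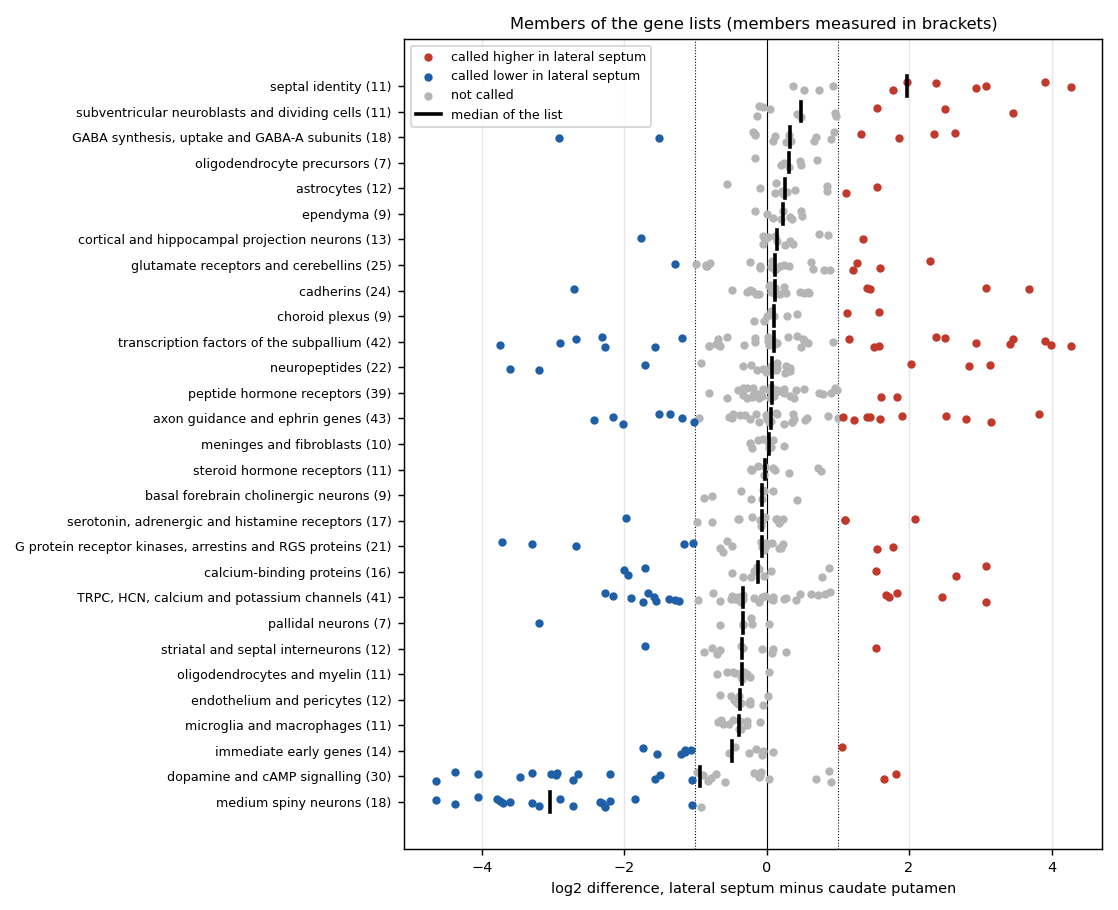
Difference of LS minus CPu (log2) for each measured gene of the 29 lists, 1 point per gene, with the list median as a black bar and dotted lines at 2-fold. The septal list at the top has a median of 1.98 and the medium spiny neuron list at the bottom one of -3.05, while the medians of the other lists lie between -0.94 and 0.48.

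Differences from the lateral and the medial CPu were compared side by side for the 50 named genes, all of which were called against both regions. Most of them were picked for large differences from the mean of both regions, which made calls against each region likely. The values diverged most for Gprin3, at -4.12 against lateral and -2.88 against medial CPu, and for Plcxd3, at 3.91 and 2.73 against the lateral and the medial region. Tmem255a was at 4.94 against lateral and 3.897 against medial CPu, and Arhgap6 at 3.22 against lateral and 2.22 against medial CPu. These pairs share the LS arrays, and the difference between the CPu regions was not tested.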

How the data were processed

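The deposited values are log2 expression levels made by the authors with RMA, per the submitters' processing notes, with no version stated, from Trizol RNA labelled with biotin in one cycle, per the labels. They were used as deposited. Arrays give no counts, so their number limits the precision. Of 45101 probe sets, 34945 had 1 gene symbol in the platform annotation, 932 several and 9160 none, and 64 were controls; the brightest single-gene probe set stood for each of 18193 genes. A mean for each of 52 regions was fitted over all arrays of the series with limma 3.58.1 (R 4.3.3), which left 52 residual degrees of freedom, and tests were two-sided. LS was compared with the mean of both CPu regions. The 29 lists held 529 genes, 476 of them measured. Members, lists and tests were chosen with earlier results of these data known.

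The genes named were the 20 largest called differences each way and up to 12 each way with LS or CPu apart from all other arrays. They needed a higher-group mean no lower than the median of all values, LS arrays on 1 side of CPu and no provisional symbol. Prdm16, Grk5 and list members were named as well. The fit was run on simulated data of this design, with independent noise in each array. It called 48 of 50 genes raised by 1.2 (log2) and 50 of 50 raised by 1.5, the same numbers for lowered genes, and 0 unchanged genes. By adjusted p alone, 5 unchanged genes passed. The simulated arrays lacked the correlations between same-numbered arrays given below, so these numbers do not give the error rate of the real arrays.

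Deviations of same-numbered arrays from their region means correlated at 0.11 (LS with lateral CPu), 0.46 (LS with medial CPu) and 0.21 (lateral with medial CPu), and the replicate number was therefore tried as a block. The labels do not state what the numbers share. Over all 1326 pairs of regions, 24.7% exceeded 0.1. Alternatives changed the normalization, probe set choice, dim genes, variance model, arrays fitted, CPu region and single arrays.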

Additional observations from a re-analysis of the deposited data

How the results depend on the processing

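Without the fold threshold, the counts were 2742 genes higher and 2252 lower, 1643 higher and 1266 lower against both CPu regions, and 264 of the list genes called in place of 124. Under the other alternatives, single CPu regions included, 338 to 548 genes were called higher and 325 to 424 lower, the fewest higher with probe sets averaged per gene. Leaving out 1 array at a time gave 432 to 507 higher and 362 to 398 lower, with 125 to 130 list genes called. With the replicate block, 456 genes were higher and 376 lower, and 457 and 376 when only the 6 arrays were fitted; the block moved no count by over 1.5 times. With dim genes left out, 47 of the 50 named genes were tested (not Zic2, Sp8 and Car10), and these 47 kept their calls. Under the other alternatives all 50 had a value, and 1 lost its call, Gng4 without probe sets named _x_at or _s_at (0.59). Where tested, 0 changed direction. Most of the 50 were picked for large differences, which made it likely that their calls would hold. Dim values limit the folds of 134 genes called higher, whose CPu mean was below the median of all values, and of 85 called lower, whose LS mean was.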

Other observations

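LS ranked first of the 52 regions for some list genes that were not called against CPu. Gad2 stood at 12.28 and 12.44 in the LS arrays, against 11.23 and 11.40 in lateral CPu and 11.64 and 11.51 in medial CPu. Dlx6 stood at 9.04 and 9.04 in the LS arrays, against 9.06 and 8.92 in lateral CPu and 8.45 and 7.63 in medial CPu, a difference of 0.53 ± 0.20 (SE, adjusted p = 0.0394), and Gria2, an AMPA receptor subunit, at 13.05 and 12.70 in the LS arrays, against 12.61 and 12.50 in lateral CPu and 12.64 and 12.47 in medial CPu, a difference of 0.32 ± 0.13 (SE, adjusted p = 0.0717). Grm5, the metabotropic mGluR5 receptor, stood at 11.95 and 12.33 in the LS arrays, against 11.96 and 12.20 in lateral CPu and 11.48 and 12.17 in medial CPu, a difference of 0.18 ± 0.18 (SE, adjusted p = 0.497). Crhr2 stood at 8.08 and 7.60 in the LS arrays, against 7.13 and 7.22 in lateral CPu and 6.96 and 7.15 in medial CPu, a difference of 0.73 ± 0.10 (SE, adjusted p = 1.49e-08). These 5 genes were picked after their ranks were seen.

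LS ranked last for Nr2f1, the transcription factor COUP-TFI, at 5.49 and 5.64 in the LS arrays, against 6.46 and 6.62 in lateral CPu and 6.08 and 6.34 in medial CPu, a difference of -0.81 ± 0.15 (SE, adjusted p = 7.82e-06), and for Kcnj6, an inward rectifier channel, at 7.63 and 7.67 in the LS arrays, against 8.21 and 8.09 in lateral CPu and 7.86 and 8.08 in medial CPu, a difference of -0.40 ± 0.10 (SE, adjusted p = 0.00168). Both differences were below 2-fold, and both genes were picked after their ranks were seen.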
